A study of Mus musculus with 34 samples.

Results

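Fatty acid oxidation enzymes and their close partners were followed as a group of 33 genes in liver RNA of mice labelled knockout (KO) for Setd8 and of mice labelled wild type (WT). The members were taken as a list of names: uptake and activation proteins, the carnitine shuttle, the enzymes of the mitochondrial spiral, the proteins that pass on its electrons, auxiliary enzymes for unsaturated chains, peroxisomal proteins and 1 ketone body enzyme. All 33 were found among the 37583 genes of the deposited files, and all 33 passed the filter on low mRNA values.

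Setd8, also called Kmt5a or PR-Set7, encodes the enzyme that adds a single methyl group to lysine 20 of histone H4. KO animals had the genotype Setd8lox/lox-Alb-Cre, in which exon 7 of Setd8 is floxed and Cre is driven by the albumin promoter, a promoter active in hepatocytes, so that removal of the exon is directed to these cells. Removal was not measured here, nor in which cells it took place. WT animals were labelled wild type, with no further allele given. All were F1 mice (C57Bl6/CBA) aged 45 days on a standard chow diet. Poly(A) mRNA was sequenced in 3 KO and 3 WT libraries. Nascent RNA was measured in 1 KO and 1 WT library by each of 2 methods: labelling in the animal with ethynyl uridine (EU) at 25 mg per kg over the last 30 min of life, and run-on transcription for 3 min in nuclei given bromouridine triphosphate (Br).

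Fatty acids enter beta-oxidation as acyl-CoA esters. Long chains cross the inner mitochondrial membrane as carnitine esters, and each turn of the spiral then removes an acetyl-CoA through dehydrogenation, hydration, a second dehydrogenation and thiolysis. Peroxisomes shorten very long and branched chains. In liver the acetyl-CoA feeds ketone body synthesis, and many of these genes are targets of the nuclear receptor PPAR alpha, which fatty acids activate.

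The mRNA values are DESeq-scaled read numbers that the authors rounded to whole numbers, called scaled values below. They summed to 18069344 to 25820906 per library, and nascent libraries held 5583983 (KO) and 10833287 (WT) EU reads and 2317840 (KO) and 3156055 (WT) Br reads. WT replicate 3 stood apart from the other 5 mRNA libraries, at 121.5 on the first principal component against -46.2 to -6.1, with 20077 genes above 0 against 24497 to 26247. Results are therefore given with it and without it. Setd8 mRNA itself was not lower in the libraries labelled KO, with 1199, 1040 and 1075 scaled values against 593, 615 and 1076 in the libraries labelled WT (log2 fold change 0.59, SE 0.25, limma adjusted p = 0.244, and 0.87 without WT replicate 3, limma adjusted p = 0.0206, and between 0.000312 and 0.512 over 18 alternative settings of the fit). A count over the whole gene tests the loss of 1 exon only in part, so KO and WT are used below as the labels of the libraries. Defining markers fit the tissue label: none of the 15 hepatocyte markers was at 0 in any library, and they held 13.1% to 13.4% of the scaled values in KO and 11.4% to 14.2% in WT. The labels number the replicates without saying that each is a separate animal, so the p-values rest on library-to-library spread, part of which may be technical.

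Most fatty acid oxidation mRNAs were not shown to differ between the genotypes, and the change that passed the test was that of 1 gene, Crat. Of 33 members, 1 rose in KO (Crat), none fell and 32 did not pass (limma-trend on log2 of the scaled value plus 1, Benjamini-Hochberg adjusted p under 0.05 over 16813 genes, two-sided). Over all genes tested, 1.35% were called higher and 1.36% lower. The edgeR quasi-likelihood test on re-estimated reads called Crat alone, and DESeq2 called 2 members higher (Crat and Cpt2) and 3 lower (Acsl1, Slc27a2 and Hadh), against 5.62% higher and 5.83% lower of all genes. An unadjusted limma p under 0.05 was found for 9 of 33 members, 4 higher (Crat, Slc22a5, Pex11a and Cpt2) and 5 lower (Acsl1, Slc27a2, Hadh, Acads and Eci1), against 20% of all genes. The median log2 fold change of the members was -0.12 and that of all genes was 0.00. Positive values were fitted for 12 members and negative ones for 21, and 23 lay within 0.5 of 0. All KO libraries lay above all WT libraries for 4 members (Crat, Slc22a5, Pex11a and Cpt2), against 13.2% of all genes. The reverse held for 6 members (Acsl1, Slc27a2, Hadh, Acads, Decr1 and Fabp1), against 12.8%. The genotypes overlapped for the other 23 members, and were apart in either direction for 26% of all genes.

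**Figure D1:**
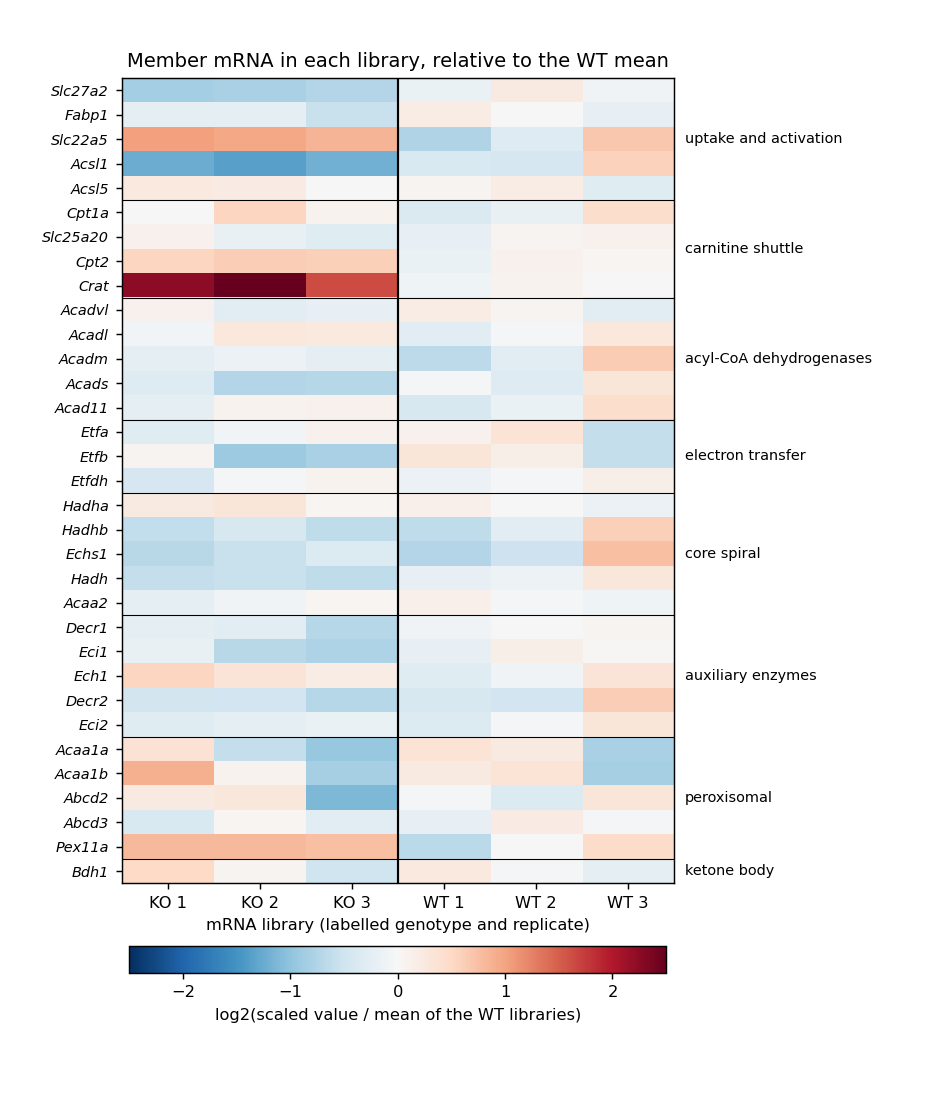
Each cell gives the log2 of a member's scaled mRNA value over the mean of the 3 WT libraries, with the KO libraries in the left columns, the WT libraries in the right columns and members grouped by role. Crat stands out as high in all 3 KO libraries, Acsl1 and Slc27a2 as low, and WT replicate 3 differs from the other WT libraries for many members.

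For the typical member the WT libraries lay farther apart than the KO libraries. The highest KO value was a median of 1.27 times the lowest (1.04 to 3.33 over the members), and in WT this ratio had a median of 1.54 (1.12 to 2.8). In WT it reached 2 or more for 9 members, and WT replicate 3 was the highest WT library for 7 of these (Slc22a5, Acsl1, Acadm, Hadhb, Echs1, Decr2 and Pex11a) and the lowest for Acaa1a and Acaa1b. WT replicate 3 was the highest of all 6 libraries for 12 members, against 28.5% of all genes, and the lowest for 4, against 26.4%. Without it, 3 members were called higher (Crat, Slc22a5 and Pex11a), against 4.74% of 16576 genes, and 2 lower (Acsl1 and Slc27a2), against 4.95%. The fitted sign of 4 members (Acadm, Echs1, Acaa1b and Bdh1) turned.

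**Figure D2:**
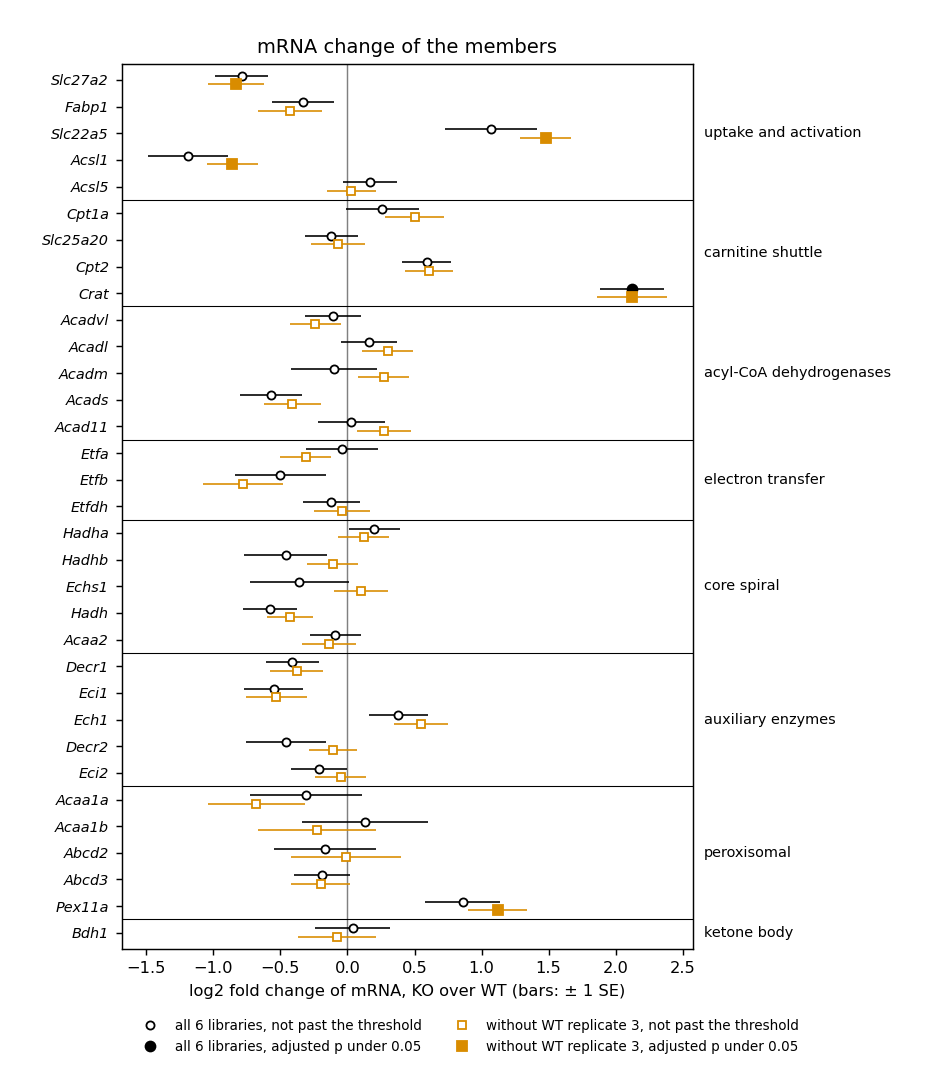
Log2 fold changes of mRNA, KO over WT, for the 33 members, with bars of 1 SE. Circles use all 6 libraries and squares leave out WT replicate 3. Filled symbols have a limma adjusted p under 0.05: Crat in both fits, and Slc22a5, Pex11a, Acsl1 and Slc27a2 in the fit without that library.

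Levels per length spanned a wide range and kept much the same order in both genotypes. Fabp1, the abundant cytosolic fatty acid binding protein of liver, was the highest member, at a mean level of 113558 scaled values per kb of transcript in KO and 142851 in WT. Next came Acaa1a, the peroxisomal 3-ketoacyl-CoA thiolase A, at a level of 12559 in KO and 15342 in WT. At the low end were Slc22a5 (359 in KO and 186 in WT per kb), Crat (398 and 89.0) and Abcd2 (75.7 and 79.5). Together the members took 1.73%, 1.51% and 1.21% of the scaled values in KO libraries and 1.67%, 1.64% and 1.3% in WT libraries, ranges that overlap.

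Of the 5 uptake and activation members none passed the test with all libraries, and 3 of them passed without WT replicate 3, in both directions. Slc22a5 (ENSMUSG00000018900) encodes OCTN2, the plasma membrane transporter that brings carnitine into the cell. It had scaled values of 1156, 1111 and 1033 in KO libraries, against 339, 457 and 913 in WT libraries. All KO libraries were higher, and WT replicate 3 came close to them. The log2 fold change was 1.07 (SE 0.34, limma adjusted p = 0.132), and without WT replicate 3 it was 1.48 (SE 0.19, limma adjusted p = 0.00614, and between 4.21e-05 and 0.388 over the alternatives). In its transcript 26.9% of 50-base stretches also occur in Slc22a21, so that reads of these 2 genes may be mixed. Slc22a21 had 153, 186 and 180 in KO and 81, 101 and 75 in WT (log2 fold change 1.01, limma adjusted p = 0.0674).

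Acsl1 (ENSMUSG00000018796), the main long-chain acyl-CoA synthetase of liver, went the other way. Its scaled values were 12263, 11328 and 12730 in KO libraries and 22254, 21631 and 43430 in WT libraries. The groups did not overlap, and WT replicate 3 was almost 2-fold above the other WT libraries. The log2 fold change was -1.19 (SE 0.30, limma adjusted p = 0.0739), and -0.86 without WT replicate 3 (limma adjusted p = 0.0316, and between 0.00026 and 0.299 over the alternatives).

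Slc27a2 (ENSMUSG00000027359), which encodes FATP2, a very-long-chain acyl-CoA synthetase and fatty acid transporter, had 16830, 17293 and 18146 in KO and 27044, 35209 and 28559 in WT. The KO libraries lay close together below all WT libraries. The log2 fold change was -0.79 (SE 0.20, limma adjusted p = 0.0797), and -0.83 without WT replicate 3 (limma adjusted p = 0.0471, and between 0.00017 and 0.319 over the alternatives). Fabp1 had 67425, 67440 and 53527 in KO and 89867, 79036 and 68087 in WT, a log2 difference of -0.33 (limma adjusted p = 0.473) with groups that nearly touch. Acsl5, a long-chain acyl-CoA synthetase of mitochondria and endoplasmic reticulum, lay between 4822 and 5682 in KO and between 3858 and 5426 in WT (0.17).

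**Figure D3:**
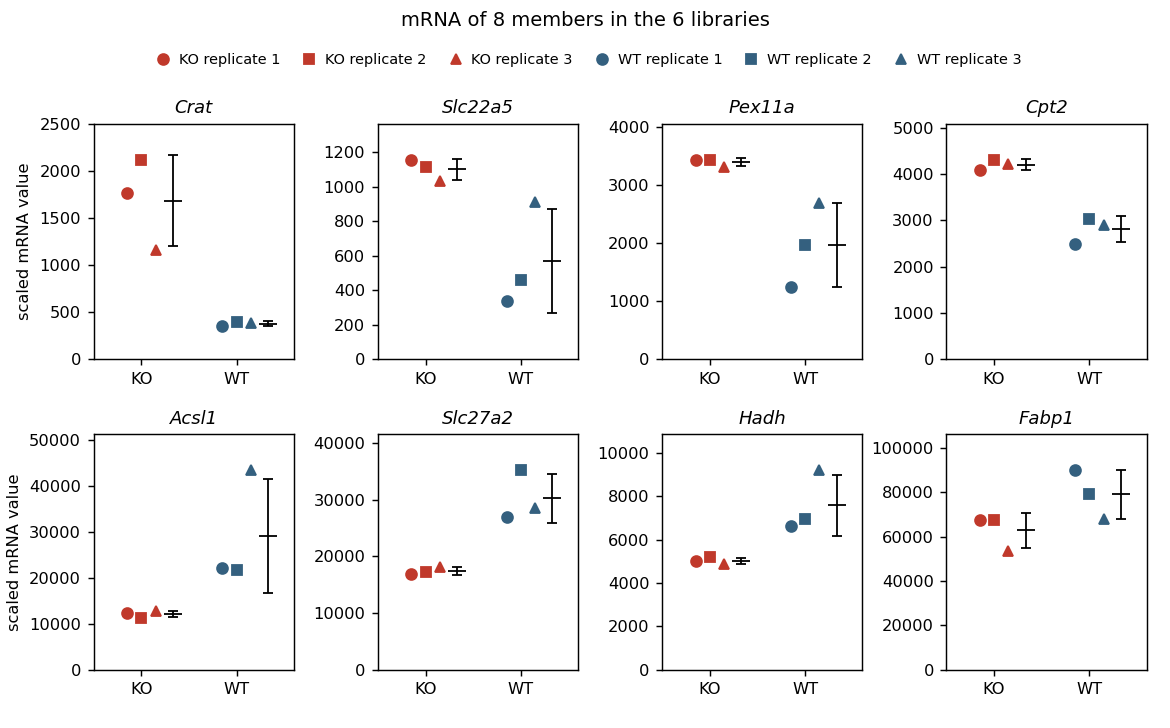
Scaled mRNA values of 8 members in each library, KO on the left and WT on the right of each panel, with the mean and SD of each group beside the points. The WT triangle (replicate 3) lies near the KO points for Slc22a5 and Pex11a and far above both groups for Acsl1.

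Promoter sequence was read for 29 members from a RefSeq table (build GRCm38.p6), as the 250 bases before each start, 3 of them with 2 starts. Decr1, Acaa2, Crat and Abcd2 had no entry. PPAR alpha with its partner RXR binds direct repeats of AGGTCA with 1 base between them. No member window held this repeat, AGGTCA, any base, AGGTCA, on either strand, and 0.0335% of all 32851 windows did. A looser form, AGGNCA, any base, AGGNCA, occurred in Fabp1 alone among the members and in 0.338% of all windows. The half-site AGGTCA occurred in 6 members (Acadm, Acadvl, Cpt1a, Echs1, Fabp1 and Slc27a2) and in 14.0% of all windows, and TATAAA occurred in Fabp1 alone among the members and in 12.4% of all windows. The windows of Slc22a5, Pex11a and Slc27a2 are printed because these are members called without WT replicate 3 that have a single window (Acsl1, called there too, has 2, which are not printed), and that of Fabp1 because its nascent and mRNA values differ most. Each reads 5′ to 3′ on the gene's strand, with matches to the looser repeat, AGGTCA and TATAAA on either strand in capitals.
Slc22a5, chr11:53891704-53891953, minus strand: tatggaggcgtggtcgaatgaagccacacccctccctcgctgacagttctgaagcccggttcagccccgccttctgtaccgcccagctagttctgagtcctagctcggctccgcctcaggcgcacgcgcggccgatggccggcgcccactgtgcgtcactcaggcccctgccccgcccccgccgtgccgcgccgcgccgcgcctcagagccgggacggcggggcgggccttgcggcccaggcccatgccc
Pex11a, chr7:79743132-79743381, minus strand: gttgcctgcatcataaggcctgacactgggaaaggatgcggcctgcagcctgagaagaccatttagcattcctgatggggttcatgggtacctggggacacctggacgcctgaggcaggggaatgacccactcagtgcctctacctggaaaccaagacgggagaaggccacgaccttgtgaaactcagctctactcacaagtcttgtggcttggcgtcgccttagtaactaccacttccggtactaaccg
Slc27a2, chr2:126552774-126553023, plus strand: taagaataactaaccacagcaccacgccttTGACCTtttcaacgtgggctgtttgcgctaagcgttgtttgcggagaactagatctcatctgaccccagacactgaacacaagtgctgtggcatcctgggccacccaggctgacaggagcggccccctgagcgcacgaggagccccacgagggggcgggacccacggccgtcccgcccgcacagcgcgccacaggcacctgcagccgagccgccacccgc
Fabp1, chr6:71199629-71199878, plus strand: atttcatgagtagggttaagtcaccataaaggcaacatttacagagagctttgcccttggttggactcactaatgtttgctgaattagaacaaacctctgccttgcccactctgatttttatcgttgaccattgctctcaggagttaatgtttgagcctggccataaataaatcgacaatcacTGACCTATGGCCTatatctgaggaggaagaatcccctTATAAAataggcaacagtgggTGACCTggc
In Fabp1 the looser repeat spans bases 67 to 55 before the start and contains the first half-site, the TATAAA spans bases 30 to 25, and a second half-site spans bases 9 to 4. Slc27a2 has 1 half-site, at bases 220 to 215. Slc22a5 and Pex11a hold no capitals, which says only that these letters are not in these windows. The member windows had a median GC content of 58.8% and a median of 12 CpG dinucleotides, against 52.4% and 6 over all windows. Among the 4 printed, Slc22a5 had the most CpG dinucleotides (30) and Fabp1 the fewest (2).

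The carnitine shuttle carries the only mRNA change that passed with all 6 libraries. Crat (ENSMUSG00000026853) encodes carnitine acetyltransferase, which exchanges acetyl groups between CoA and carnitine. It had scaled values of 1761, 2119 and 1162 in KO libraries, against 350, 398 and 380 in WT libraries. Even the lowest KO library was well above the highest WT library, and WT replicate 3 lay between the other WT libraries. The log2 fold change was 2.12, or 4.33-fold (SE 0.24, limma adjusted p = 0.00938). Without KO replicate 2 the fold change was 3.8 and the limma adjusted p 0.0541. Without WT replicate 2 it was 4.46 with an adjusted p of 0.0517, so that the call was lost in both fits, in which few of all genes were called (13 higher and 15 lower, and 24 higher and 17 lower). Over 18 alternatives the fold ran from 3.8 to 5.13 and the call was kept in 16, with adjusted p from 4.25e-12 to 0.0541.

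The other 3 shuttle members did not pass. Cpt2, the inner membrane carnitine palmitoyltransferase, had 4083, 4313 and 4225 in KO and 2493, 3036 and 2902 in WT. The groups were apart, and the log2 difference was 0.59 (SE 0.18, limma adjusted p = 0.116, and 0.61 without WT replicate 3, limma adjusted p = 0.0652). Cpt1a, the outer membrane enzyme that malonyl-CoA inhibits and that sets the pace of the pathway, had 7432, 10724 and 7837 in KO and 5712, 6433 and 9943 in WT, which overlap (0.26). Slc25a20, the carnitine-acylcarnitine translocase, had 3091, 2516 and 2323 in KO and 2497, 3020 and 3087 in WT (-0.12).

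None of the 5 acyl-CoA dehydrogenases, which carry out the first step for chains of different length, passed in either fit. Acads, for short chains, had 7228, 5436 and 5564 in KO and 8848, 7255 and 11150 in WT. Its groups were apart by a narrow gap (log2 fold change -0.57, limma adjusted p = 0.218). Acadl, for long chains, had 2679, 3386 and 3297 in KO and 2329, 2724 and 3352 in WT (0.16). Acadm, for medium chains, had 4471, 4685 and 4430 in KO, while WT ran from 3301 through 4268 to 8093 in replicate 3 (-0.10, and 0.27 without that library). Acadvl (-0.11), for very long chains, and Acad11 (0.03) overlapped between genotypes. In Acadvl 24.0% of 50-base stretches also lie in Dvl2 on the opposite strand, and the strand setting of the counting is not given in the sources used here.

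Electrons from these dehydrogenases pass through the electron transfer flavoprotein (Etfa and Etfb) and its oxidoreductase (Etfdh) to ubiquinone. No member of this group passed, and all 3 overlapped between genotypes. Etfb had 10531, 5412 and 5723 in KO and 12371, 11238 and 6666 in WT (-0.50, and -0.78 without WT replicate 3). KO replicate 1 sat with the high WT libraries and WT replicate 3 with the low KO libraries. In Etfb 67.3% of 50-base stretches also occur in Gm45233, which lies on the same strand and is not among the genes of the deposited files. Counts of Etfb may therefore include reads of Gm45233. Etfa ran from 2733 to 3619 in KO and from 2225 to 4247 in WT, and Etfdh from 3354 to 4770 in KO and from 4072 to 4992 in WT.

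Of the 5 enzymes of the core spiral none passed. Hadh, the short-chain hydroxyacyl-CoA dehydrogenase, was the clearest, with 5029, 5185 and 4888 in KO and 6628, 6956 and 9208 in WT. Its groups did not overlap (log2 fold change -0.58, SE 0.20, limma adjusted p = 0.157). Hadha, the alpha subunit of the trifunctional protein, had 8449, 8813 and 7457 in KO and 7884, 7208 and 6456 in WT (0.20). Its partner Hadhb had a log2 fold change of -0.46, with 3489 in WT replicate 3 while WT replicates 1 and 2 had 1486 and 1915 and KO ran from 1472 to 1748. These genes lie head to head: their starts are 272 bases apart and their promoter windows share 228 bases. In Hadhb 61.5% of 50-base stretches also occur in Gm13910, so that reads of these 2 genes may be mixed in either direction. Gm13910 had 921, 1331 and 999 in KO and 885, 741 and 772 in WT (log2 fold change 0.42, limma adjusted p = 0.288). Echs1, the short-chain enoyl-CoA hydratase, ran from 5921 to 7542 in KO, against 5757 and 6665 in the first WT libraries and 16137 in WT replicate 3 (-0.36, and 0.10 without it). Acaa2, the mitochondrial thiolase, had -0.09.

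The auxiliary enzymes, which prepare double bonds for the spiral, had 4 negative and 1 positive fold change and none passed. Ech1, a dienoyl-CoA isomerase, had 10392, 9029 and 8187 in KO and 5803, 6772 and 8945 in WT. The groups overlap through WT replicate 3 (0.38, and 0.55 without it, limma adjusted p = 0.117). Eci1, the mitochondrial enoyl-CoA isomerase also called Dci, had 3742, 2632 and 2506 in KO and 3723, 4723 and 4362 in WT (-0.55), and KO replicate 1 reached the WT range. Decr1, the mitochondrial dienoyl-CoA reductase, had 4023, 3899 and 2913 in KO and 4478, 4821 and 5000 in WT, with no overlap (-0.41, limma adjusted p = 0.292). Decr2, its peroxisomal counterpart, had -0.46 with 6688 in WT replicate 3 against 2659 to 3307 in the other libraries, and Eci2, a second enoyl-CoA isomerase, had 5001, 5232 and 5479 in KO and 4832, 6066 and 7572 in WT (-0.21).

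Among the 5 peroxisomal members, Pex11a (ENSMUSG00000030545), a membrane protein that drives peroxisome division, had the largest difference. It had 3428, 3435 and 3312 in KO and 1241, 1966 and 2695 in WT. The KO libraries were almost equal and above all WT libraries, which differed more than 2-fold among themselves. The log2 fold change was 0.86 (SE 0.28, limma adjusted p = 0.142), and 1.12 without WT replicate 3 (limma adjusted p = 0.0224, and between 0.000511 and 0.414 over the alternatives). Acaa1a had 34519, 17860 and 14009 in KO and 34092, 31629 and 15377 in WT (-0.31), and its near copy Acaa1b had 33103, 18854 and 9932 in KO and 20691, 22565 and 10029 in WT (0.13). KO replicate 1 was high and KO replicate 3 and WT replicate 3 were low for both thiolases, which share 34.0% of the stretches of Acaa1a. Abcd2 (515, 539 and 203 in KO and 426, 349 and 545 in WT) and Abcd3 (5074 to 6871 in KO and 5749 to 7672 in WT), transporters that bring acyl-CoA into the peroxisome, overlapped. Bdh1, which interconverts acetoacetate and 3-hydroxybutyrate, had 13798, 10308 and 6991 in KO and 11615, 9600 and 8236 in WT (0.04), with KO libraries at both ends of the range.

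Other genes of fatty acid handling give the setting. In the list of 22 other peroxisomal oxidation genes, 1 rose, none fell and 21 did not pass in limma, with or without WT replicate 3, and the same counts came from edgeR. DESeq2 called 2 higher (Crot and Acox2) and 1 lower (Scp2). The gene called by all of these was Crot, carnitine octanoyltransferase, which hands medium chains from the peroxisome to carnitine. It had 12947, 13408 and 8771 in KO and 5592, 4749 and 3942 in WT (log2 fold change 1.29, SE 0.24, limma adjusted p = 0.0359), and every KO library was higher than every WT library. The call was lost without KO replicate 1 or 2 or WT replicate 1 or 2 (limma adjusted p up to 0.189). None of 20 other mitochondrial acyl-CoA genes passed in limma or edgeR (7 had an unadjusted limma p under 0.05), while DESeq2 called 2 higher (Acot2 and Acad10) and limma without WT replicate 3 called 1 higher (Acad10). None of 18 regulators passed in limma or edgeR (3 had an unadjusted limma p under 0.05), while DESeq2 called 2 lower (Ppara and Acacb) and limma without WT replicate 3 called 3 lower (Ppara, Ppargc1b and Esrra). The median log2 fold change was -0.11 in the peroxisomal, -0.40 in the mitochondrial and -0.16 in the regulator list.

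Ppara, which encodes PPAR alpha, had 1895, 2237 and 1873 in KO and 3139, 3306 and 3511 in WT. The groups were clearly apart, and the log2 difference was -0.73 (SE 0.17, limma adjusted p = 0.0667, and 0.0441 without WT replicate 3, and between 0.000922 and 0.227 over the alternatives). Of 6 ketogenesis genes, with a median log2 fold change of 0.18, 1 fell in limma and in edgeR (Bdh2). DESeq2 called 1 lower (Bdh2) and 1 higher (Slc16a6). Bdh2, a cytosolic dehydrogenase, had 90, 85 and 135 in KO and 268, 427 and 442 in WT (-1.86, SE 0.29, limma adjusted p = 0.0209). Its call was lost without KO replicate 1 or 2 or WT replicate 2.

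Among 19 tested genes of other uptake and activation steps, 1 rose and 1 fell in limma and in edgeR. Without WT replicate 3 limma called 4 higher and 3 lower, and DESeq2 with all libraries called 2 higher and 3 lower. Acss3, a short-chain acyl-CoA synthetase, had 143, 204 and 204 in KO and 74, 84 and 67 in WT (1.27, SE 0.26, limma adjusted p = 0.0466). Acsm5, a medium-chain acyl-CoA synthetase, had 2382, 2199 and 1785 in KO and 6234, 5341 and 5525 in WT (-1.43, SE 0.19, limma adjusted p = 0.0119). The call of Acsm5 was lost without KO replicate 2 or WT replicate 2, and that of Acss3 in 5 of the 6 fits that left out 1 library, all but that without WT replicate 3.

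The omega-hydroxylases, which oxidise fatty acids from the other end in the endoplasmic reticulum, changed most. Of 6 genes 3 rose and 1 fell. Cyp4a14 had 30918, 19945 and 24260 in KO and 64, 90 and 58 in WT (log2 fold change 8.45, SE 0.24, limma adjusted p = 6.11e-06). Cyp4a31 (3.48) and Cyp4a10 (3.67) rose too and Cyp4a12b (-1.09) fell. The calls of Cyp4a14 and Cyp4a31 held in each of the 6 fits that left out 1 library, that of Cyp4a10 in 3 and that of Cyp4a12b in 1. Cyp4a genes are near copies of each other, and counting may split their reads.

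Markers of other liver cells moved with genotype beside these results. Of 14 macrophage markers 2 rose in limma (Csf1r and Cd14), 7 without WT replicate 3, 4 in edgeR and 10 in DESeq2. Of all genes, 1.35%, 4.74%, 1.55% and 5.62% were called higher in these 4 settings. An unadjusted limma p under 0.05 was found for 12 macrophage markers, all higher in KO, against 20% of all genes in either direction. The summed scaled values of the macrophage markers ran from 11641 to 26280 in KO and from 8208 to 9836 in WT. Of 11 tested stellate cell and fibroblast markers 2 rose in limma (Pdgfrb and Postn), 4 without WT replicate 3, 2 in edgeR and 3 in DESeq2. Their sums were 6677 to 8472 in KO and 3574 to 5027 in WT. Of 7 tested duct markers 1 rose (Spp1), in limma, edgeR and DESeq2, with sums of 1484 to 2367 in KO and 853 to 1318 in WT. Of the 6 fits that left out 1 library, the limma calls of Cd14, Pdgfrb and Postn were lost in 5, all but that without WT replicate 3. Those of Csf1r and Spp1 were lost in 4, without KO replicate 1 or 2 or WT replicate 1 or 2. With all 6 libraries, none of 15 hepatocyte, 10 endothelial, 10 lymphocyte, 4 erythroid, 3 adipocyte and 2 muscle markers passed in limma or edgeR. Without WT replicate 3 limma called 2 endothelial markers higher (Cdh5 and Oit3) and none of the other lists in this group. An unadjusted limma p under 0.05 was found for 2 hepatocyte, 4 endothelial and 1 erythroid marker, and DESeq2 called 1 hepatocyte and 2 endothelial markers, all higher. No marker was at 0 in all libraries of a genotype. The part of these cells in the changes of members was not tested, and in bulk liver more cells of a type and more RNA per cell cannot be told apart.

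Nascent RNA was compared as the log2 ratio of KO reads to WT reads, centred on the median gene of the method, with exact Clopper-Pearson 95% intervals that cover counting error only. With 1 library per genotype there is no test, and a gene is described as higher or lower past 1.5-fold. The methods differed over the members. In EU, 22 of 33 members were higher in KO and 1 was lower (Cpt2), against 33.2% and 32.5% of all genes with at least 20 reads. Among genes with at least 500 EU reads, 20% were higher and 28% lower. In Br, 4 members were higher and 2 lower (Slc27a2 and Hadh), against 17.6% and 16.8% of all genes, and 9.23% and 12.7% of genes with at least 200 Br reads. Counting intervals lay wholly above the centre for 27 members and below it for 4 in EU (39.5% of all genes each way), and above for 9 and below for 5 in Br (19.9% and 20% of all genes). The members' median was 0.85 in EU (range -0.79 to 3.84) and 0.12 in Br (-0.76 to 1.54), where the median gene is at 0. The EU ratio exceeded the Br ratio for 29 of 33 members, against 48% of all genes with 20 reads in both.

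**Figure D4:**
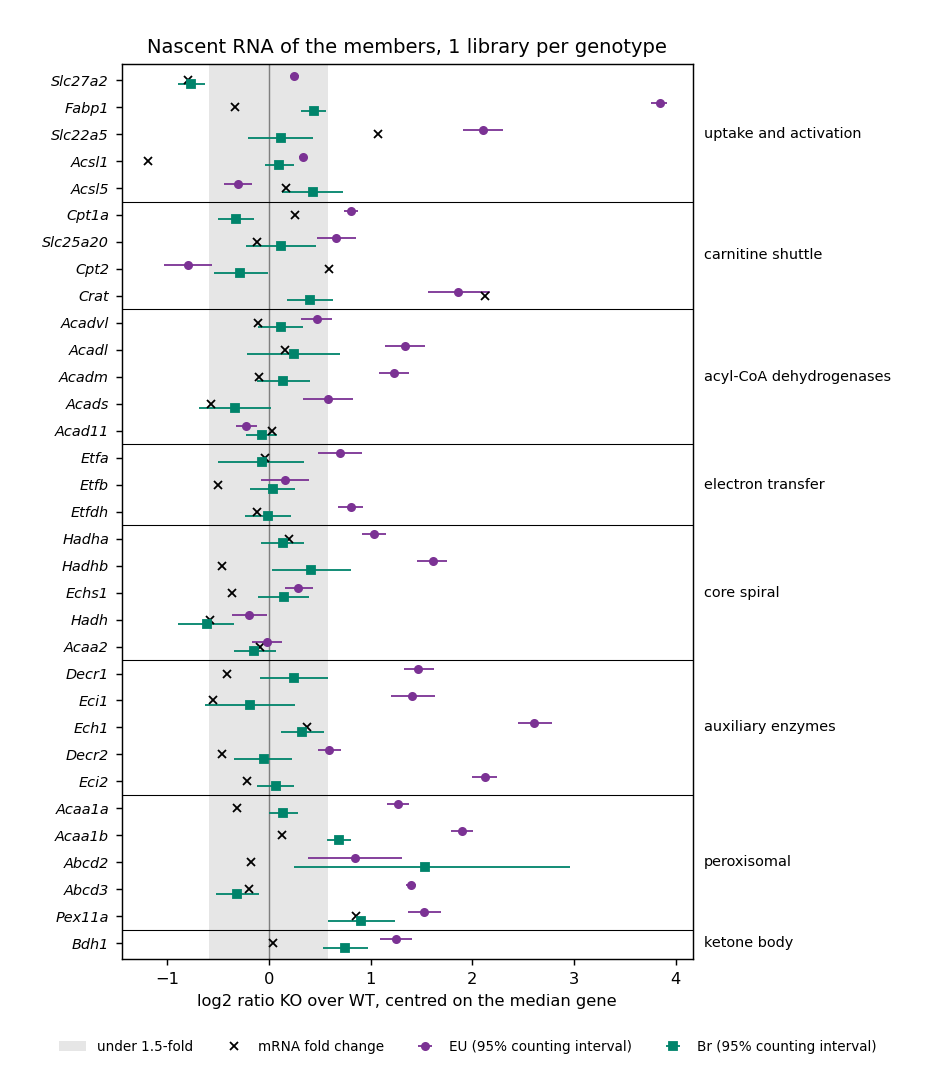
Log2 ratios of nascent RNA, KO over WT, by EU (circles) and Br (squares), each centred on its median gene, with 95% counting intervals, and the mRNA fold change (crosses). The grey band marks changes under 1.5-fold. EU points lie to the right of the band for 22 members, and most Br points lie inside it.

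Past 1.5-fold higher in both methods were 4 of 33 members, against 7.47% of all genes: the peroxisomal Acaa1b, Abcd2 and Pex11a, and Bdh1. None was lower in both, against 6.43% of all genes. Pex11a had 786 EU reads in KO against 535 in WT (log2 ratio 1.53, interval 1.37 to 1.69) and 184 Br reads in KO against 134 in WT (0.91, 0.58 to 1.24). Its mRNA difference of 0.86 had the same direction. Bdh1 had 696 EU reads in KO against 577 in WT (1.25) and 367 Br reads in KO against 297 in WT (0.75, 0.53 to 0.98), while its mRNA difference was 0.04. Acaa1b had 2044 EU reads in KO against 1079 in WT (1.90) and 1210 Br reads in KO against 1025 in WT (0.69, 0.57 to 0.81). Abcd2 had 77 EU reads in KO against 84 in WT (0.85, 0.39 to 1.31), and its Br value rests on 17 reads in KO and 8 in WT (1.54, 0.25 to 2.96).

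For the members with the clearest mRNA differences the nascent values were mixed. Crat had 258 EU reads in KO against 140 in WT (log2 ratio 1.86, interval 1.56 to 2.17) and 332 Br reads in KO against 342 in WT (0.41, 0.18 to 0.63). Both ratios were above 0, and the Br ratio was 1.71 below the mRNA change. Slc22a5 had 700 EU reads in KO against 320 in WT (2.11) and 155 Br reads in KO against 195 in WT (0.12, -0.20 to 0.43). Slc27a2 had 6257 EU reads in KO against 10340 in WT (0.25) and 707 Br reads in KO against 1637 in WT (-0.76, -0.89 to -0.63), close to its mRNA difference of -0.79. Hadh had 402 EU reads in KO against 901 in WT (-0.19, -0.36 to -0.02) and 169 Br reads in KO against 353 in WT (-0.61, -0.89 to -0.34). Its Br ratio, but not its EU ratio, was close to its mRNA difference of -0.58. Acsl1, with 8240 EU reads in KO against 12820 in WT (0.34) and 689 Br reads in KO against 877 in WT (0.10, -0.04 to 0.25), was not lower in either. Cpt2, whose mRNA values were all higher in KO, had 192 EU reads in KO against 655 in WT (-0.79, -1.03 to -0.56) and a Br ratio of -0.28 (-0.54 to -0.01).

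The widest gaps between a nascent and an mRNA value were in EU. Fabp1 had 11811 EU reads in KO against 1625 in WT, a log2 ratio of 3.84 (interval 3.76 to 3.91), with 1136 Br reads in KO against 1145 in WT (0.44, 0.32 to 0.56) and an mRNA difference of -0.33. Fabp1 was the member with most reads in the EU library of KO, whereas Acsl1 had most in that of WT. Ech1 and Eci2 followed. Ech1 had 1222 EU reads in KO against 393 in WT (2.61) and 353 Br reads in KO against 384 in WT (0.33), with an mRNA difference of 0.38. Eci2 had 1747 EU reads in KO against 790 in WT (2.12) and 434 Br reads in KO against 565 in WT (0.07), with an mRNA difference of -0.21. All 5 auxiliary and all 5 peroxisomal members were higher in EU. In the same pair of EU libraries Hba-a1, a globin gene, had 4572 reads in KO against 188 in WT, and Alas2, the erythroid heme enzyme, had 2 in KO against 342 in WT. EU reads of the 14 macrophage markers summed to 3104 in KO and 536 in WT, with C1qc at 0 in KO and Cd14 at 0 in WT. C1qb alone held 2461 of these in KO and 59 in WT. Of 11 macrophage markers with at least 20 EU reads, 7 were higher and 3 lower, against 33.2% and 32.5% of all genes. EU reads of the 12 stellate cell markers summed to 7276 in KO and 1384 in WT, with none at 0. Col3a1 alone held 3396 in KO and 529 in WT. Of 11 stellate cell markers with at least 20 EU reads, 9 were higher and 2 lower (Lrat and Lum). The 15 hepatocyte markers took 4.06% of EU reads in KO and 6.36% in WT. In Br these macrophage sums were 596 in KO and 693 in WT, or 0.0257% and 0.022% of the reads. The stellate sums were 919 in KO and 682 in WT, or 0.0396% and 0.0216%. Of 11 macrophage markers with at least 20 Br reads, 3 were higher and 1 lower, against 17.6% and 16.8% of all genes. Of 10 stellate cell markers with as many reads, 9 were higher and 0 lower. The 15 hepatocyte markers took 1.96% of Br reads in KO and 2.55% in WT. The part of these differences in the members' EU and Br ratios was not tested.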

How the data were processed

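Liver mRNA (3 KO and 3 WT libraries) and nascent RNA (EU and Br, 1 KO and 1 WT library each) were analysed, and the 24 samples of chromatin and input are not used here. Results for some listed genes are not reported here. The submitters' processing notes name TopHat2, Bowtie2, Cufflinks, DESeq and genome mm9, without steps. Of the counter, annotation and strand setting nothing is given in the sources used here. Values of mRNA are a score: read numbers that the authors scaled with DESeq size factors and rounded. The nascent files hold counts as the authors deposited them, and Br counts, all of them even, were halved. The authors' deposited RPKM table of the nascent libraries served as an alternative only.

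Groups came from the sample titles. Genes were named through GENCODE M21 annotation (32860 of 37583 IDs). Because scaled values do not suit a count model, limma 3.58.1 (R 4.3.3, eBayes with trend and robust) was run on log2 of the value plus 1 for genes that reached 10 in 3 or more libraries. Fold changes are on that scale. Reads re-estimated from the rounding step (15640553 to 27108677 per library, approximate in 3 libraries with a step under 1) entered edgeR 4.0.16 and DESeq2 1.42.0 as alternatives. On simulated data for the mRNA comparison, with 100 genes at each fold among 16297, limma called 58 of the 4-fold and 8 of the 2-fold changes, and 5 unchanged genes. Nascent ratios were centred on the median of genes with at least 20 reads over both libraries. Per-kb levels use 1 annotated transcript per gene. Shared sequence was counted as 50-base stretches that also occur in transcripts of another gene, on either strand. Figures were drawn with matplotlib 3.10.9.

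Members were accounted for by role. Every library's value is given for members called in either fit, for the largest rise and fall of each role, and for nascent members past 1.5-fold in both methods or farthest from their mRNA. The members, lists and tests were chosen with earlier results of these data known. Alternatives were edgeR, DESeq2, other filters, pseudocounts of 0.5 and 10, TMM scaling, array weights, a replicate block, a minimum fold and each library left out. Added after seeing the data were TMM scaling and edgeR without WT replicate 3, and re-estimated reads scaled to library totals.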

Additional observations from a re-analysis of the deposited data

How the results depend on the processing

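Crat was higher in KO in all 18 alternatives. Over 15 named members and 18 alternatives, 233 of 270 values kept their direction and side of the threshold, 30 became calls, 2 lost the call (Crat without KO or WT replicate 2) and 5 turned sign without being called. These were Slc25a20 (0.10 with reads scaled to library totals) and Bdh1 (-0.20 without KO replicate 1, -0.08 without WT replicate 3 and with TMM scaling as well, -0.03 in edgeR without it, with a range of -0.20 to 0.30 over single libraries left out). With a library left out, members called higher numbered 0 to 3 and lower 0 to 2, and the members' median log2 fold change lay between -0.20 and -0.08. Members apart between groups numbered 4 to 7 (KO above) and 6 to 9 (KO below). Groups lie apart more readily when a library is left out, and the share of all genes apart is not given for these settings. Calls over all genes ran from 13 to 785 higher and from 15 to 821 lower in those fits. Members called higher and lower numbered 2 and 3 in DESeq2, 7 and 10 with array weights (where 4250 of all genes were called higher and 4160 lower), 1 and 1 without a filter, and 3 and 2 without WT replicate 3, also in edgeR or with TMM scaling. With reads scaled to library totals, all genes shifted by a median of 0.22, and the members' median was 0.11. In that setting 3 members (and 451 of all genes) were called higher and no member (168 of all genes) lower. There 7 members lay apart above and 3 below, again without a share of all genes. The cause of these differences was not tested. The labels do not say that replicate numbers pair the libraries. Deviations of same-numbered KO and WT libraries correlated at 0.409, -0.242 and 0.198, and those of libraries with different numbers at -0.395 to 0.27. With 3 libraries per genotype these values cannot decide whether the numbers pair them. With the replicate block 1 member was called higher and 1 lower (Acsl1, limma adjusted p = 0.0386). Of all genes 500 were called higher and 514 lower with the block, against 227 and 228 without it. In nascent RNA, a 2-fold limit left 16 members higher and 0 lower in EU, and 1 higher and 0 lower in Br. Other alternatives gave 21 to 23 EU members higher and 3 or 4 Br members higher. The shares of all genes under these settings are not given here, so these counts cannot be set against the background. In the main setting 19 of 33 members had an interval that spans 0 in Br, against 2 in EU. Of all genes, 19.9% had a Br interval wholly above the centre and 20% one below it, against 39.5% each way in EU.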

Other observations

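Some genes of the lists of fatty acid handling, regulators and macrophage markers, most without values of their own above, varied widely between libraries of 1 genotype or between methods. Lpin1, a phosphatidate phosphatase and coactivator of PPAR alpha, had 2090, 5428 and 13150 scaled values in KO and 1345, 5744 and 17100 in WT (log2 fold change 0.06, limma adjusted p = 0.984), while its nascent reads were fewer in KO by both methods (5144 EU reads in KO against 35517 in WT, 469 Br reads in KO against 3061 in WT). Fgf21, a liver hormone induced by fasting, had 612, 264 and 76 in KO and 61, 46 and 189 in WT (1.50, limma adjusted p = 0.33), with 370 Br reads in KO against 19 in WT. Cd36, a fatty acid transporter, had 372, 581 and 488 in KO and 145, 104 and 382 in WT (1.39, limma adjusted p = 0.139, and 1.94 without WT replicate 3, limma adjusted p = 0.00739, and between 2.1e-05 and 0.434 over the alternatives). Acot2, a mitochondrial acyl-CoA thioesterase, had 1166, 663 and 346 in KO and 234, 235 and 321 in WT (1.30, limma adjusted p = 0.129), with 298 EU reads in KO against 45 in WT and 53 Br reads in KO against 24 in WT. In EU the 3 complement genes C1qa, C1qb and C1qc had 2, 2461 and 0 reads in KO and 1, 59 and 22 in WT. These genes were chosen after their values were seen.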
